A study of Mus musculus with 6 samples.

Results

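Tubulins and the enzymes that fold and modify them were followed in polyadenylated RNA of mouse round spermatids, the haploid cells that later build the sperm tail. The set holds 51 of the 22770 genes of the deposited table, chosen by gene symbol: alpha-, beta-, gamma-, delta- and epsilon-tubulins, gamma-tubulin complex proteins, the Ttll family and its partners, deglutamylases, the genes of the tyrosine cycle, an acetyltransferase and folding cofactors. The set was picked because Ttll genes were lower in the mutant, so every comparison of genotypes below describes the members and carries no test of its own. Round spermatids of the genotype labelled Eif5a SKO (3 libraries) were compared with wild-type round spermatids (3 libraries), all sorted by flow cytometry from testes at postnatal day 28, when most are at step 8. The sources used here do not expand SKO, name the driver of the deletion or say whether the libraries of a group came from separate animals, so the spread between libraries may be technical. All 51 members passed the filter on low counts.

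Microtubules are built from dimers of alpha- and beta-tubulin, while gamma-tubulin and its complex start them and delta- and epsilon-tubulin serve the triplet microtubules of centrioles. The acidic carboxy-terminal tails of tubulin are modified after assembly: TTLL enzymes attach chains of glutamate or glycine, carboxypeptidases of the CCP family trim the glutamates, and the last tyrosine of alpha-tubulin is removed by vasohibins and put back by TTL. Modified tubulin is abundant in the sperm axoneme and in the manchette, a transient sleeve of microtubules around the elongating nucleus, and several of these enzymes are needed for male fertility in mice.

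Library totals ran from 52055193 to 60970931 counts. Eif5a itself averaged 659.7 CPM in wild-type libraries against 6.17 CPM in SKO, with at least 36162 counts in each wild-type library and at most 338 in each SKO library. CPM here is the usual depth-scaled count, taken on the TMM-scaled library size, and values with ± are the mean and SD of 3 libraries unless named as SE. A value after a log2 fold change and ± is its SE. The summed level of 12 spermatid markers (Acrv1, Prm1, Tnp2 and others) was 4180 to 4584 CPM in wild-type libraries against 5950 to 6920 CPM in SKO, and each of them was detected in both groups. A gene is called when edgeR's quasi-likelihood test over 19776 genes gives a Benjamini-Hochberg adjusted p under 0.05. SKO replicate 3 stood apart from the other libraries of its group: chi-square of the counts over degrees of freedom was 149.1 and 143.5 against SKO replicates 1 and 2, and 35.8 between those 2. In sorted bulk material fewer cells of a type and less RNA per cell cannot be told apart.

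Of the 51 members 23 were called lower and 7 higher in SKO, and 21 were not called. Over all genes tested 42.0% were called, 20.9% lower and 21.2% higher. With library totals alone as scaling, which put the median of all genes at -0.228, the members called were 29 lower and 6 higher, and the genes called 5666 lower and 2831 higher in place of 4127 and 4185. The median log2 fold change (SKO against wild type) was -0.50 over the members and 0.012 over all genes. The groups did not overlap for 36 members, 29 of them lower, against 55.6% of all genes in either direction and 28.3% in the lower direction. Without SKO replicate 3 the members called were 27 lower and 8 higher, and 23.5% of all genes were called lower. After correction for transcript length and GC content the members called were 17 lower and 9 higher, beside 18.7% and 23.1% of all genes. The median of the members was then -0.23, beside 0.074 over all genes. Of the 38 members other than Ttll genes 15 were called lower and 7 higher, with a median of -0.32, and of -0.06 after that correction.

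**Figure D1:**
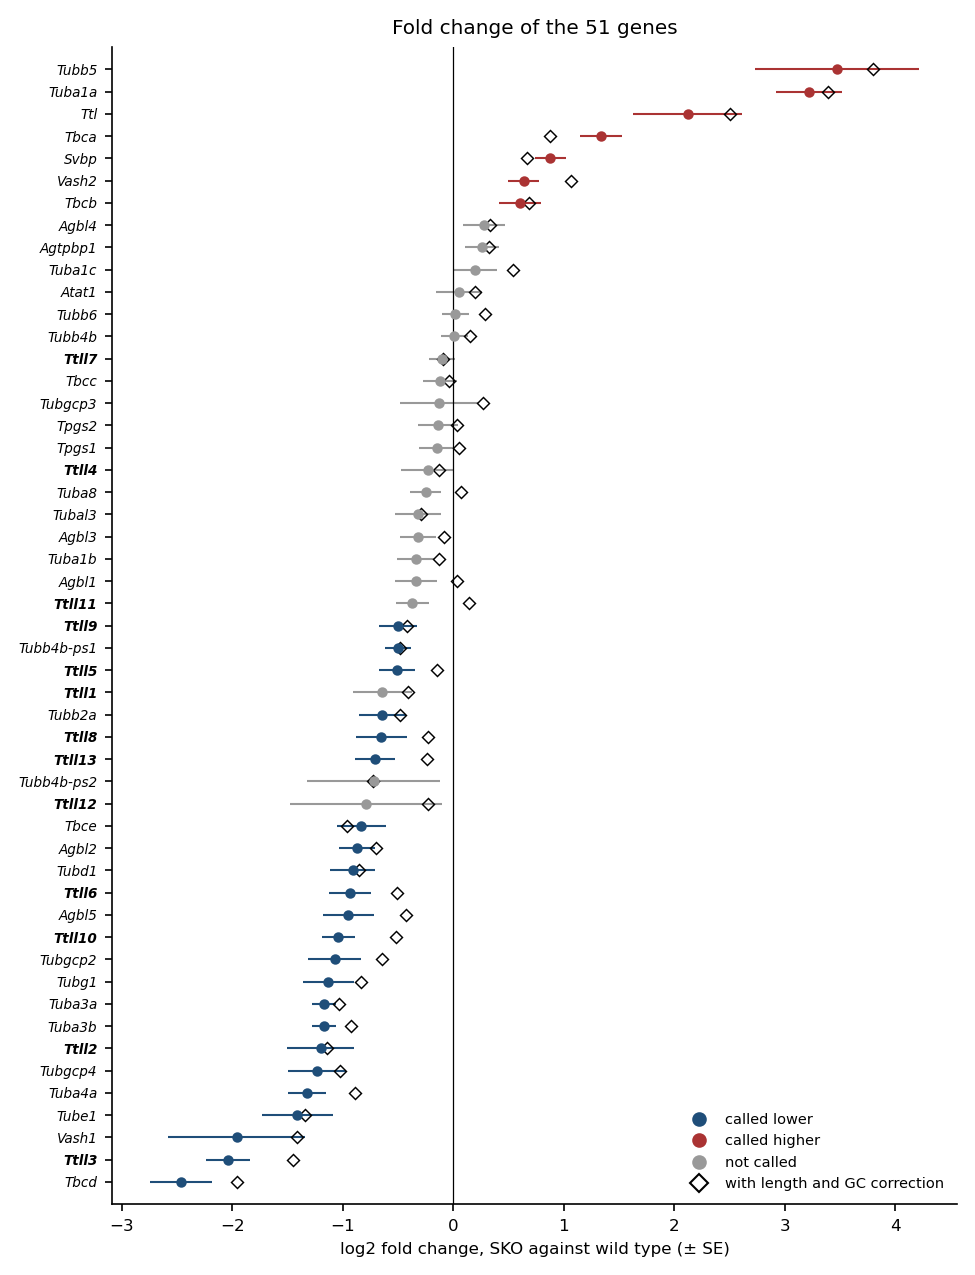
Log2 fold change (SKO against wild type, ± SE, n = 3 libraries per group) of each of the 51 genes, with Ttll genes in bold, filled points from the fit of all genes and open diamonds from the fit corrected for transcript length and GC content. All 13 Ttll genes lie left of 0 in the uncorrected fit, from -2.04 for Ttll3 to -0.10 for Ttll7, and Tubb5 and Tuba1a lie farthest to the right.

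The coding ends of 6 tubulin genes are shown because the tail they encode is what the TTLL and CCP enzymes act on. Each line is the last 54 coding bases with the stop codon, read 5′ to 3′ from GENCODE M21 transcripts (GRCm38), with glutamate codons in capitals.
Tuba3a: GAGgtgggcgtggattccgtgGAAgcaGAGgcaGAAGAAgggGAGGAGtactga
Tuba3b: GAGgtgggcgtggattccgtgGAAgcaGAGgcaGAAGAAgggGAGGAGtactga
Tuba8: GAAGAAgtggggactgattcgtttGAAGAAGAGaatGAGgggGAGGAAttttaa
Tuba4a: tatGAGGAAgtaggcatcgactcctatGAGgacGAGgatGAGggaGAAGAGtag
Tubb4b: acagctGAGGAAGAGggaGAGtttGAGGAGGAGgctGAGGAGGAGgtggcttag
Tubb5: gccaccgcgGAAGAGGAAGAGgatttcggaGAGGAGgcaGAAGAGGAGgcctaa
The stretches lie at chr6:125278358-125278411 (minus strand) for Tuba3a, chr6:145621334-145621387 (plus) for Tuba3b, chr6:121226026-121226079 (plus) for Tuba8, chr1:75215622-75215675 (minus) for Tuba4a, chr2:25222308-25222361 (minus) for Tubb4b and chr17:35834982-35835035 (minus) for Tubb5, each within 1 coding exon. Tuba3a and Tuba3b hold the same 54 bases, with 7 glutamate codons and a final tyrosine codon. The last codon of Tuba8 is for phenylalanine and that of Tuba4a for glutamate. Among the 4 alpha tails shown, the tyrosine that vasohibins remove is thus encoded by Tuba3a and Tuba3b. The tails of Tuba1a, Tuba1b and Tuba1c, not shown, also end in a tyrosine codon. The beta tails shown hold 10 glutamate codons in Tubb4b and 9 in Tubb5.

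The 2 main alpha-tubulin genes fell in SKO spermatids, while the main beta-tubulin gene was not called. Tuba3a, a testis alpha-tubulin gene (chromosome 6, 125278274 to 125286042, minus strand, GRCm38), held 2248, 2337 and 2301 CPM in the wild-type libraries against 1065, 1009 and 986 CPM in the SKO libraries. Its copy Tuba3b (chromosome 6, 145615757 to 145621479, plus strand) stood at 2276, 2285 and 2241 CPM in wild-type libraries against 1035, 935 and 1046 CPM in SKO. Both fell by 1.17 ± 0.11 on the log2 scale, which is 2.25-fold, and every SKO library lay below every wild-type library. The coding sequences of the pair differ at 41 of 1353 bases, and the ratio of their counts was 0.942 to 1.08 in the 6 libraries. Reads that match both copies may have been split or dropped in the counting, so each single level is uncertain. Per kilobase of transcript, Tuba3a and Tuba3b made up 98.0% ± 0.10 of the RNA of the 8 alpha-tubulin genes in wild type and 96.3% ± 0.18 in SKO.

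Tubb4b, the main beta-tubulin gene (chromosome 2, 25222160 to 25224702, minus strand), stood at 1531, 1693 and 1532 CPM in wild-type libraries against 1674, 1513 and 1592 CPM in SKO. The ranges overlap, and the log2 fold change was 0.01 ± 0.12, a value whose sign turned under library totals alone (-0.23), DESeq2 or its size factors (-0.0079) and some left-out libraries. Tubb4b made up 94.6% ± 0.36 of the RNA of the 4 beta-tubulin genes per kilobase in wild type and 94.7% ± 0.11 in SKO. The summed alpha-tubulin level was 2856 ± 37.4 CPM per kilobase in wild type and 1290 ± 50.9 in SKO, while the beta sum was 1048 ± 57.7 and 1053 ± 51.9. The ratio of alpha to beta within each library, which no scaling of libraries can change, was 2.79, 2.60 and 2.80 in wild type and 1.21, 1.24 and 1.23 in SKO. These ratios are tight within each genotype, and the groups lie far apart. Reads shared by Tuba3a and Tuba3b, or by Tubb4b and its pseudogenes, may have been dropped, so the level of the ratio is uncertain too.

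**Figure D2:**
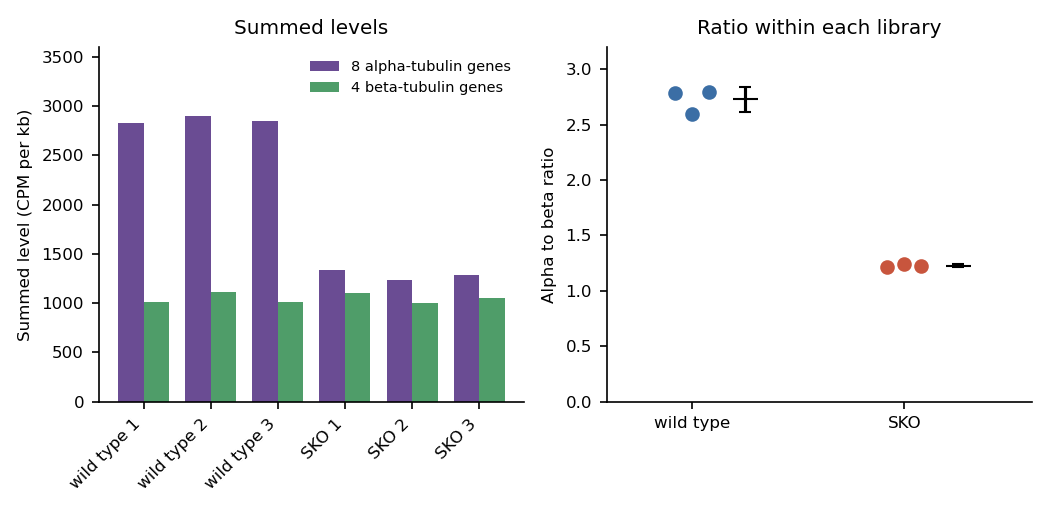
Left, summed level in CPM per kilobase of transcript of the 8 alpha- and 4 beta-tubulin genes in each library. Right, the ratio of both sums in each library with mean and SD (n = 3) beside the points, at 2.73 ± 0.11 in wild type and 1.23 ± 0.01 in SKO.

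The minor alpha-tubulin genes went different ways. Tuba4a, whose tail lacks the final tyrosine codon, went from 20.6, 26.9 and 22.3 CPM in wild type to 8.41, 9.0 and 10.6 CPM in SKO (log2 fold change -1.32 ± 0.17). Its exons share 1379 bases with Stk16 on the opposite strand, and the strand setting of the counting is not given in the sources used here, so its counts may hold reads of both genes. Tuba8, whose tail ends in phenylalanine, was not called, with 80.2 ± 6.25 CPM in wild-type libraries against 67.3 ± 6.60 CPM in SKO. Tuba1b (14.3 ± 0.71 against 11.2 ± 1.91 CPM), Tuba1c (7.45 ± 0.23 against 8.59 ± 1.96 CPM) and Tubal3 (6.38 ± 1.09 against 5.10 ± 0.50 CPM, wild type given first) were not called either. The log2 fold change of Tuba1c, 0.20, was -0.02 under library totals alone or without SKO replicate 3, and 0.54 and called higher after the length and GC correction.

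Tuba1a and Tubb5, tubulins widely used by somatic and dividing cells, rose from very low levels. Tuba1a (chromosome 15, 98949837 to 98953703, minus strand) stood at 0.562, 0.494 and 0.369 CPM in wild-type libraries against 5.23, 4.45 and 3.66 CPM in SKO, which is 3.22 ± 0.30 higher on the log2 scale. Its coding sequence is 98.3% identical to that of Tuba1b, which was not called, and its exons share 473 bases with Gm49450 on the same strand, so its counts are uncertain. Tubb5 (chromosome 17, 35833921 to 35838306, minus strand) stood at 0.0681, 0.256 and 0.625 CPM in wild type, from 4, 15 and 39 counts, and at 5.87, 3.64 and 1.15 CPM in SKO, which is 3.47 ± 0.74 higher on the log2 scale. The groups do not overlap, but the highest wild-type library and the lowest SKO library of Tubb5 lie less than 2-fold apart. Markers of Sertoli cells, the somatic nurse cells of the tubule, moved in the same direction: 9 of 9 markers in the table, of 14 listed, had a higher mean in SKO, none was at 0 throughout a group, and their sum was 224.5, 128.2 and 68.6 CPM in SKO replicates 1 to 3 against 2.93, 5.57 and 12.1 CPM in wild-type replicates 1 to 3. Within each genotype Tubb5 and the Sertoli sum put the 3 libraries in the same order. Tuba1a followed that order in SKO and the reverse order in wild type, and the part of such cells in either gene was not tested. The sums were 8.02 to 44.6 CPM in SKO and 1.26 to 21.6 CPM in wild type for 6 Leydig cell markers, and 16.1 to 35.9 and 5.15 to 12 CPM for 3 peritubular myoid markers.

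The other beta-tubulin genes were Tubb6 and Tubb2a. Tubb6 stood at 85.2, 85.9 and 89.7 CPM in wild-type libraries against 87.9, 84.3 and 92.1 CPM in SKO, overlapped, and was not called. Tubb2a fell from 11.5, 10.7 and 10.3 CPM to 8.18, 7.63 and 5.03 CPM (log2 fold change -0.64 ± 0.21), with no overlap. Its call was lost after correction for transcript length and GC content (-0.48) and with any 1 of the wild-type libraries left out (-0.68 to -0.60). The fits without a wild-type library called 3025 to 3253 of all genes lower, in place of 4127. Of the processed pseudogenes, Tubb4b-ps1 (chromosome 5, 7179365 to 7180700, plus strand) stood at 120.9, 115.4 and 115.9 CPM in wild-type libraries against 79.9, 81.3 and 88.1 CPM in SKO, and was called lower, except with wild-type replicate 1 left out (-0.48), while Tubb4b was not called. It is 98.6% identical to the coding sequence of Tubb4b over 1335 aligned bases, and it held 6.82% to 7.90% as many counts as Tubb4b in wild type and 4.77% to 5.53% in SKO. With 19 differing bases, its reads and those of Tubb4b cannot be separated with certainty. Tubb4b-ps2 had at most 44 counts in a library and was not called.

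**Figure D3:**
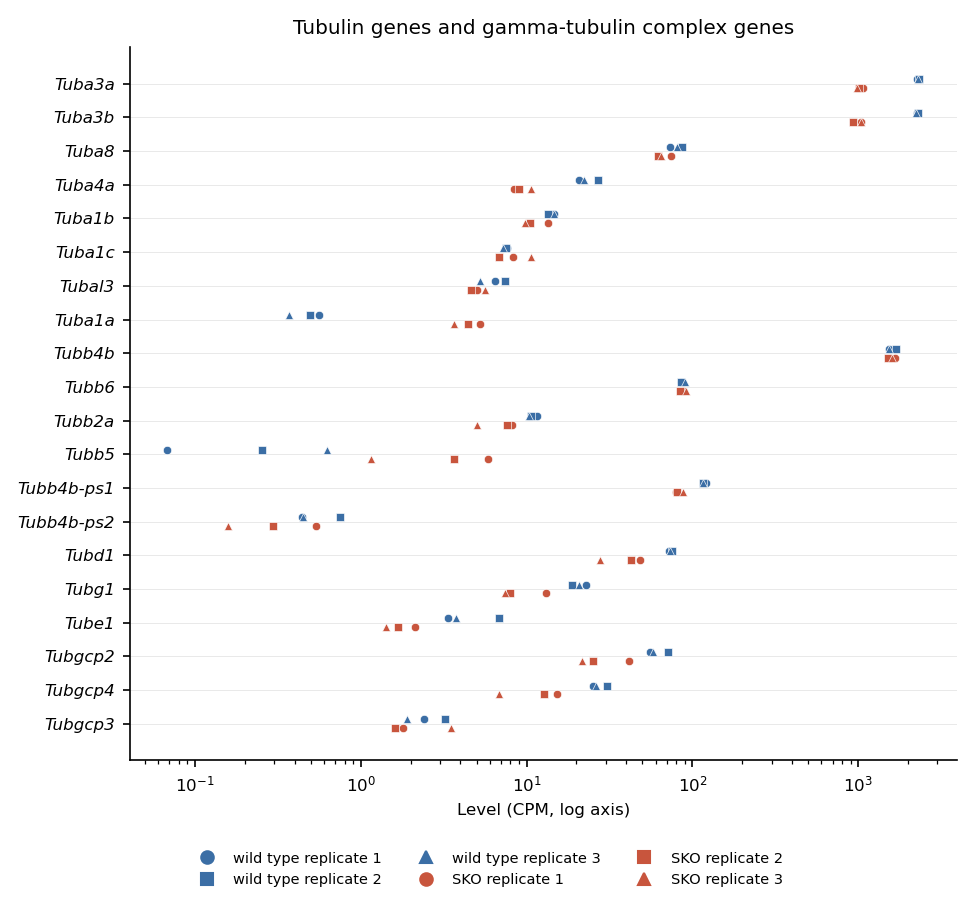
Level in CPM (log axis) of each tubulin and gamma-tubulin complex gene in each of the 6 libraries, wild type in blue above and SKO in red below. Tuba3a and Tuba3b sit between 2241 and 2337 CPM in wild type and between 935 and 1065 CPM in SKO, Tubb4b overlaps between genotypes, and Tuba1a and Tubb5 are at or below 0.625 CPM in wild type.

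All members of the nucleating and centriolar group fell except Tubgcp3. Tubg1, the gamma-tubulin gene (chromosome 11, 101119938 to 101126419, plus strand), went from 22.8, 18.7 and 20.8 CPM to 13.1, 7.94 and 7.43 CPM (log2 fold change -1.13 ± 0.23). Tubd1, for delta-tubulin (chromosome 11, 86544991 to 86567360, plus strand), went from 72.3, 75.7 and 73.4 CPM to 48.2, 42.4 and 27.6 CPM (-0.91 ± 0.20). Tube1, for epsilon-tubulin, went from 3.36, 6.80 and 3.75 CPM to 2.13, 1.67 and 1.43 CPM (-1.41 ± 0.32), and shares 482 exonic bases with Ccn6 on the opposite strand. No SKO library of these 3 genes reached the lowest wild-type library.

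Tubgcp2 and Tubgcp4, subunits of the gamma-tubulin ring complex, were both called lower. Tubgcp2 went from 55.7, 71.7 and 58.2 CPM to 41.4, 25.2 and 21.5 CPM (log2 fold change -1.07 ± 0.24), and Tubgcp4 from 25.1, 30.4 and 26.3 CPM to 15.3, 12.7 and 6.83 CPM (-1.23 ± 0.26). Neither gene overlaps between genotypes, and the length and GC correction brought Tubgcp2 to -0.64. Exons of Tubgcp4 share 2130 bases with Trp53bp1, and those of Tubgcp2 216 bases with Zfp511, both on the opposite strand. Tubgcp3 was at 2.51 ± 0.66 CPM in wild-type libraries against 2.30 ± 1.03 CPM in SKO and was not called. In SKO replicate 3 Tubgcp4 stood at 6.83 CPM against 15.3 and 12.7 CPM in SKO replicates 1 and 2, and without that library it was still called, at -1.0.

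The Ttll family held 13 genes, all with a negative log2 fold change, and 8 were called lower, 0 higher. The median of the family was -0.65, and these genes are what the set was chosen on. Taken library by library, the median Ttll gene stood 0.46, 0.83 and 0.63 log2 units below the wild-type mean in SKO replicates 1, 2 and 3. After correction for transcript length and GC content 5 were called (Ttll2, Ttll3, Ttll6, Ttll9 and Ttll10), the median was -0.24 and Ttll11 turned positive (0.14), while the median of all genes was 0.074 and 18.7% of them were called lower. Leaving out wild-type replicate 1 or 2 left 5 or 4 Ttll genes called lower, with family medians of -0.69 and -0.55. Over all genes these fits called 3160 and 3025 lower, in place of 4127. Leaving out SKO replicate 3 gave 11 Ttll genes called lower, in a fit that called 23.5% of all genes lower.

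Among glutamylases, Ttll13 and Ttll9 were the most abundant per kilobase of those called, after which levels dropped steeply. Ttll9 (chromosome 2, 152962485 to 153008482, plus strand) stood at 185 CPM per kilobase in wild type and Ttll13 at 116, against 24.9 for Ttll1, the catalytic subunit of a polyglutamylase complex. Ttll13, an enzyme that lengthens glutamate chains (chromosome 7, 80246376 to 80260821, plus strand), went from 319.9, 400.1 and 324.5 CPM to 269, 194.3 and 175.9 CPM, a log2 fold change of -0.71 ± 0.18. Ttll9 went from 285.9, 286.4 and 289.5 CPM to 238, 220.2 and 153.2 CPM (-0.50 ± 0.17). No SKO library of either gene reached wild type. The Ttll13 call was lost after the length and GC correction (-0.24) and with wild-type replicate 2 left out (-0.60). The Ttll9 call was lost with the replicate block (-0.52) and with any 1 of the wild-type libraries left out (-0.50 to -0.49).

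Ttll6, which also lengthens chains, went from 69.96, 93.9 and 70.6 CPM to 35.6, 36.1 and 51.2 CPM (-0.93 ± 0.19), and was called under all 14 alternative settings, at -0.51 after the length and GC correction. Ttll5, which starts chains and is needed for sperm tail function, went from 69.4, 86.0 and 66.5 CPM to 53.6, 44.5 and 58.2 CPM (-0.51 ± 0.16). Its call was lost after the length and GC correction (-0.15), with the replicate block (-0.50) and without SKO replicate 1 or 2 or wild-type replicate 1 or 2 (-0.55 to -0.38). Ttll2 was low, going from 2.28, 3.85 and 4.26 CPM to 1.76, 1.32 and 1.45 CPM (-1.20 ± 0.30), and shares 463 exonic bases with Gm49630 on the same strand. The groups of all 3 genes do not overlap.

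Ttll1, Ttll4, Ttll7 and Ttll11 were not called. Ttll1 stood at 51, 50.9 and 51.9 CPM in wild-type libraries against 44.0, 36.5 and 18.3 CPM in SKO, so its spread in SKO came mostly from replicate 3. It was called lower in 6 of 14 alternatives: without SKO replicate 3 (-0.38 in place of -0.64), without SKO replicate 1 (-0.93), with DESeq2 (-0.66), limma-voom (-0.73), library totals (-0.89) and the replicate block (-0.73). Ttll7, which starts chains preferentially on beta-tubulin, was at 152.1 ± 6.54 CPM in wild-type libraries against 141.9 ± 6.44 CPM in SKO. Ttll4 was at 52.1 ± 12 and 44.5 ± 13.7 CPM, and Ttll11 at 53.6 ± 2.63 and 41.6 ± 6.65 CPM. Without SKO replicate 3 both were called lower, Ttll4 at -0.55 and Ttll11 at -0.54. Tpgs1 and Tpgs2, subunits of the complex of Ttll1, were not called: Tpgs1 stood at 30.3, 29.0 and 35.4 CPM against 25.6, 27.2 and 32.5 CPM in SKO, and Tpgs2 at 474.9, 467.1 and 458.3 CPM against 513.2, 457 and 302.9 CPM. Both overlap between genotypes, and SKO replicate 3 lay lowest for Tpgs2. Its log2 fold change of -0.14 became 0.02 without that library.

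All 3 glycylase genes were called lower. Ttll3, which starts glycine chains (chromosome 6, 113389260 to 113414587, plus strand), had the largest fall of the family, from 34.7, 48.9 and 33.9 CPM to 8.78, 8.52 and 11.3 CPM, which is 4.11-fold (log2 fold change -2.04 ± 0.20). Its exons share 283 bases with Arpc4 on the same strand. Ttll10, which lengthens glycine chains and was the most abundant glycylase gene (chromosome 4, 156034840 to 156059414, minus strand), went from 230.3, 254 and 243.7 CPM to 140.8, 110.8 and 102.8 CPM (-1.04 ± 0.15). Their SKO values do not overlap wild type, and both were called under all 14 alternatives. The length and GC correction brought Ttll10 to -0.52 and Ttll3 to -1.45. Ttll8, the other enzyme that starts glycine chains, went from 19.3, 23.8 and 17.3 CPM to 11.7, 9.59 and 17.1 CPM (-0.65 ± 0.23). SKO replicate 3 came within 1 CPM of the lowest wild-type library for Ttll8, and the call was lost in 7 of 14 alternatives: SKO replicate 1 or 2 or any 1 wild-type library left out (-0.76 to -0.51), the replicate block and the length and GC correction. Ttll12, which stands apart from both kinds of enzyme, had 4 to 24 counts per library and was not called.

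**Figure D4:**
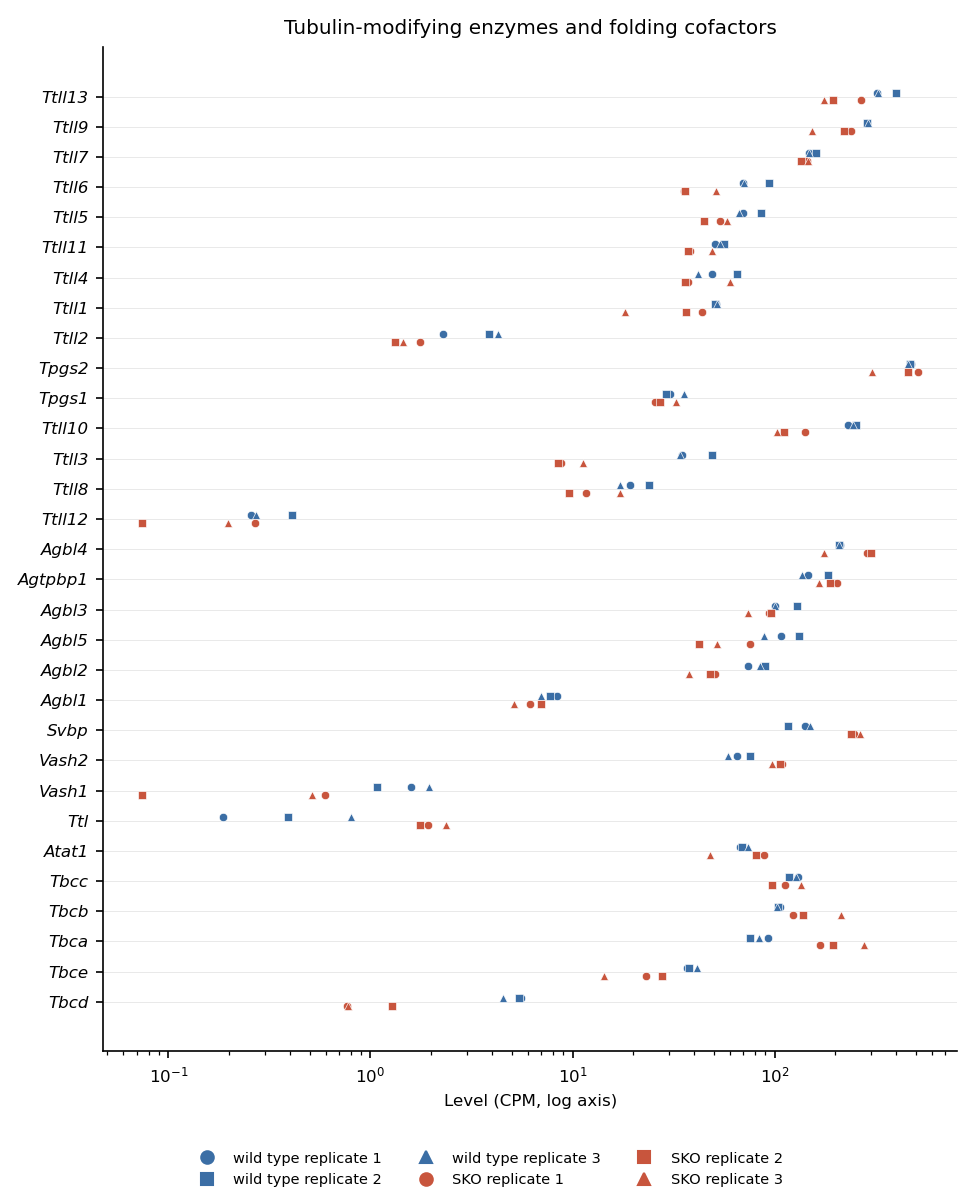
Level in CPM (log axis) of each modifying enzyme and folding cofactor in each of the 6 libraries, wild type in blue above and SKO in red below. The Ttll3 and Ttll10 points separate by genotype, and SKO replicate 3 (triangle) lies apart from SKO replicates 1 and 2 for Ttll1, Tpgs2, Agbl4 and Atat1.

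Promoters of the family were searched for the letters of motifs known from ciliated and germ cells: GTTGCC, part of the X-box bound by RFX factors, and TGACG, part of the CRE bound by CREM, each on both strands in 250 bases before to 50 after the RefSeq start (GRCm38.p6). The letters GTTGCC were found for 5 of 11 Ttll genes with a promoter in the table, for 12 of 43 members and for 16.6% of 12752 genes tested. TGACG was found for 2 of 11 Ttll genes, 11 of 43 members and 30.7% of genes. Besides the glycylase genes, Agbl2, Tbcd, Ttll5 and Ttll9, all called lower, held GTTGCC. So did Agbl3, Agtpbp1, Atat1, Tuba1c and Tuba8, which were not called. The glycylase genes are shown because all 3 hold GTTGCC, with the match in capitals. Each is read on the strand of its gene, so the capitals of Ttll3 are GTTGCC on the opposite strand.
Ttll3: tgattgtgcctgGGCAACagtctcctagga
Ttll8: caggcgagggcgGTTGCCctgagcaaccgc
Ttll10: tccctagtaacaGTTGCCtggagac
These lie at chr6:113392386-113392415 (plus strand), chr15:88954629-88954658 (minus) and chr4:156050818-156050842 (minus), and the match begins 65, 228 and 13 bases before the RefSeq start, which for Ttll3 and Ttll10 lies inside the GENCODE gene. A match is a run of letters and does not show that a factor binds there.

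Deglutamylases were mixed, with 2 of 6 called lower and 0 higher. Agbl5 (CCP5), which removes the glutamate at the branch point, went from 107.2, 131.8 and 88.4 CPM to 75.1, 42.2 and 51.9 CPM (log2 fold change -0.95 ± 0.23). Agbl2 (CCP2) went from 74.0, 90.0 and 84.7 CPM to 50.9, 47.8 and 37.6 CPM (-0.87 ± 0.16). Both separate by genotype, but the Agbl5 call was lost after the length and GC correction (-0.43), and its exons share 677 bases with Ost4 on the opposite strand. The most abundant enzyme of this kind per kilobase was Agbl4 (CCP6), at 210.7, 208.6 and 207.7 CPM in wild-type libraries against 286.8, 299.2 and 175 CPM in SKO. It was not called with all libraries and was called higher without SKO replicate 3 (0.45). Agtpbp1 (CCP1), whose loss causes Purkinje cell degeneration and male sterility, was at 155.5 ± 24.9 CPM in wild-type libraries against 186 ± 18.6 CPM in SKO. Agbl3 (110 ± 16.3 and 87.9 ± 12.1 CPM) and Agbl1 (7.70 ± 0.68 and 6.09 ± 0.92 CPM) were not called.

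The tyrosine cycle was the one group of more than 2 genes with more members called higher than lower. Svbp, the small partner that vasohibins need (chromosome 4, 119195306 to 119201298, plus strand), rose from 141.7, 116.5 and 149.3 CPM to 246.2, 238.8 and 265 CPM (log2 fold change 0.88 ± 0.14). Vash2, a tubulin carboxypeptidase (chromosome 1, 190947646 to 190979296, minus strand), rose from 65.3, 75.4 and 58.8 CPM to 108.5, 106.7 and 96.8 CPM (0.64 ± 0.14). Both separate by genotype and were called under all 14 alternatives, at 0.67 for Svbp and 1.07 for Vash2 after the length and GC correction. Vash1 was low, going from 1.58, 1.07 and 1.96 CPM to 0.599, 0.0742 and 0.515 CPM, and was called lower (-1.96 ± 0.62). The Vash1 call was lost with any 1 wild-type library left out (-2.16 to -1.75) and after the length and GC correction (-1.41). Ttl, the ligase that restores the tyrosine, rose from 0.187, 0.392 and 0.802 CPM to 1.92, 1.76 and 2.38 CPM (2.12 ± 0.49). At these levels, 11 to 50 counts in wild-type libraries, its log2 fold change is less precise than that of Svbp. Between genotypes Ttl went the same way as the Sertoli markers, and within wild type Ttl and their sum put the libraries in the same order. Within SKO Ttl was highest in replicate 3, where the Sertoli sum was lowest. The part of such cells in Ttl was not tested. Atat1, the acetyltransferase of the luminal lysine of alpha-tubulin, was at 70.2 ± 3.67 CPM in wild-type libraries against 72.5 ± 21.6 CPM in SKO and was not called. Its SKO libraries were 88.8, 80.7 and 48.0 CPM, so replicate 3 again lay apart.

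Folding cofactors went both ways, with 2 of 5 called higher and 2 lower. Tbca, which holds beta-tubulin on the folding path, rose from 92.6, 75.8 and 83.9 CPM to 167.1, 195 and 276.3 CPM (log2 fold change 1.34 ± 0.19). Tbcb, an alpha-tubulin cofactor, rose from 106.1, 103.8 and 102.7 CPM to 123.7, 138.4 and 212.7 CPM (0.60 ± 0.19). Without SKO replicate 3, the library in which both are highest, Tbcb was still called at 0.30. Its call was lost under library totals (0.38), with the replicate block (0.56) and with any 1 wild-type library left out (0.59 to 0.62). Its exons share 325 bases with Polr2i on the opposite strand. Tbce, which works with Tbcb, fell from 36.7, 37.6 and 41.5 CPM to 23.1, 27.6 and 14.3 CPM (-0.83 ± 0.22), a call lost only without wild-type replicate 3, and shares 325 exonic bases with B3galnt2 on the opposite strand. Tbcd, which receives beta-tubulin from Tbca (chromosome 11, 121451949 to 121617164, plus strand), had the largest fall of all members, from 5.54, 5.46 and 4.54 CPM to 0.764, 1.28 and 0.772 CPM, which is 5.49-fold (-2.46 ± 0.28), and was at -1.96 after the length and GC correction. It shares 237 exonic bases with B3gntl1 on the opposite strand. Tbcc, which completes the dimer, stood at 129.8, 117.9 and 128.2 CPM against 113, 97.6 and 135.5 CPM in SKO, overlapped, and was called only without SKO replicate 3 (-0.28).

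Across roles, SKO replicate 3 lay more than 1.5-fold below both other SKO libraries for 10 members (Agbl4, Atat1, Tbce, Tpgs2, Ttll1, Tubb2a, Tubb4b-ps2, Tubb5, Tubd1 and Tubgcp4), against 12.8% of all genes tested. It lay more than 1.5-fold above both for 3 members (Tbcb, Ttll4 and Tubgcp3), against 11.1% of all genes.

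Fold change differed with transcript length over the coding genes, though not in a steady direction. Over 8 bins of 13273 coding genes by transcript length, the median log2 fold change was 0.72 in the shortest bin (114 to 1154 bases). It was -0.25 in the bins of 2670 to 3281 and 3282 to 4140 bases. In longer transcripts it came back toward 0, at -0.17 from 4141 to 5569 bases and -0.03 from 5570 bases upward. Ttll transcripts had a median length of 3114 bases (1552 to 10019), and the other 38 members one of 2026 bases. Tbca (559 bases) and Svbp (832 bases), both called higher, were among the 3 members in the shortest bin, and Tpgs1 was the third. Of the Ttll genes in the bin of 2670 to 3281 bases, whose middle 50% ran from -0.84 to 0.26, Ttll3 (-2.04) and Ttll6 (-0.93) lay below it, and Ttll13 (-0.71), Ttll8 (-0.65) and Ttll11 (-0.37) lay inside it. The length and GC correction brought Tbca from 1.34 to 0.88, Svbp from 0.88 to 0.67 and Ttll3 from -2.04 to -1.45. This correction takes length and GC content together, so the part of each in these shifts cannot be told apart. Median GC content was 52.7% for Ttll transcripts, 53.2% for the other members and 49.6% for all coding genes tested. Beyond this correction the part of length or GC content in the fold changes of single members was not tested.

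**Figure D5:**
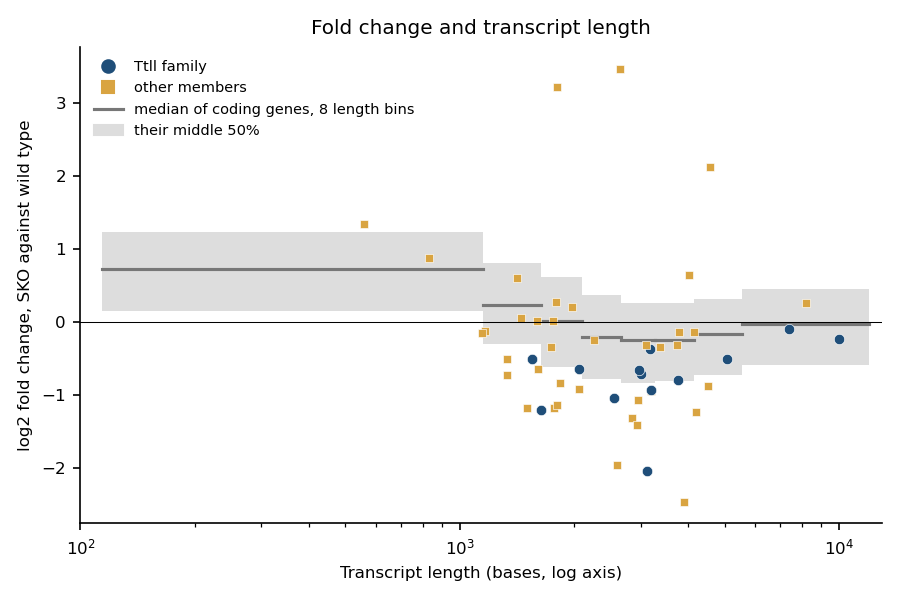
Log2 fold change (SKO against wild type) against transcript length (log axis) for the 51 members, with the median (line) and middle 50% (shade) of coding genes in 8 length bins, the last bin drawn only in part. The shortest bin lies above 0 with a median of 0.72, and most Ttll genes lie between 1552 and 5081 bases, where the medians run from 0.23 to -0.25.

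Stretches of prolines, at which EIF5A is known to help ribosomes, were counted in the complete coding sequences. A run of at least 3 proline codons was present in 8 of 49 members (16.3%) and in 22.0% of 13137 genes tested. They were Agbl1, Agbl5, Agtpbp1, Atat1, Tpgs2, Ttl, Ttll8 and Ttll12, of which Agbl5 and Ttll8 were called lower, Ttl higher and the others not called. The longest run was of 5 codons, in Agbl5. These counts are of sequence, and translation was not analysed here.

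Genes around tubulin that are outside the set were described from 3 lists. Over all genes tested 21.2% were called higher and 20.9% lower. Of 18 genes tested of the chaperonin and prefoldin list, which folds new tubulin, 7 were called higher and 1 lower. Their median log2 fold change was 0.34 against 0.012 over all genes. The genes called higher were prefoldin subunit genes and Pdcl2, with no chaperonin subunit gene among them. Pfdn5, a prefoldin subunit, rose from 176.1 ± 4.38 to 431.5 ± 114 CPM and Pdcl2, a testis cofactor of the chaperonin, from 1516 ± 198 to 3046 ± 203 CPM, while the chaperonin subunit gene Cct6a fell from 125.8 ± 4.93 to 95.6 ± 9.91 CPM. Their transcripts are short, 1062 bases for Pfdn5 and 1181 for Pdcl2, and the length and GC correction brought the log2 fold change of Pdcl2 from 1.01 to 0.41 and that of Pfdn5 from 1.29 to 1.16. Of 18 partners and other modifiers 4 were called higher and 2 lower (median -0.004), with the tubulin deacetylase gene Sirt2 down from 45.8 ± 1.74 to 26.1 ± 5.04 CPM.

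Of 32 microtubule-associated and plus-end genes 4 were called higher and 5 lower (median 0.06), beside 21.2% and 20.9% of all genes. Both counts are below these shares, so the genes named here are single genes and not a trait of the list. Among end-binding proteins Mapre1 rose from 21.2 ± 0.83 to 43.9 ± 0.91 CPM and Mapre3 fell from 67.5 ± 2.08 to 38.4 ± 6.17 CPM, a log2 fold change of -0.81 that was -0.44 after the length and GC correction. Mapre2, added after its values were seen, also fell, from 4.63 ± 0.63 to 2.56 ± 0.69 CPM. Ckap5, a microtubule polymerase gene, fell from 49.9 ± 3.60 to 18.5 ± 3.79 CPM, and Map7d3, on the X chromosome, rose from 16.0 ± 3.14 to 41.6 ± 0.30 CPM.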

How the data were processed

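Reads of 6 libraries were deposited by the authors as raw counts per gene. The submitters' processing notes name GRCm38 (mm10), HISAT2 2.0.5, featureCounts 1.5.0-p3 of Subread, Trim Galore 0.6.4 and FastQC. No source used here gives the annotation, the strand setting or the handling of reads with several hits. Opposite-strand exonic overlaps not given above include those of Atat1 (644 bases, Gm16279), Tuba8 (368, Gm15856), Ttll9 (129, Gm14199) and Tubb4b (121, Fam166a). Tuba1b shares 426 exonic bases with Gm49450 on the same strand. Counts may include PCR copies.

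Columns were joined to samples by genotype and replicate number. The whole table was fitted in edgeR 4.0.16 under R 4.3.3, with group as the only term, TMM scaling and the default filterByExpr (10 counts, 15 in total), by the two-sided quasi-likelihood test adjusted over 19776 genes. An SE is the absolute log2 fold change over the square root of F. Lengths, GC content and coding sequences came from the GENCODE M21 transcript with the longest complete coding sequence (22026 genes matched, 96.7%, with all 51 members). MAFFT 7.526 aligned coding sequences. Alternatives were DESeq2 1.42.0, limma-voom (limma 3.58.1), other scalings and filters, each library left out, the replicate block and a loess correction (span 0.3) for length and GC content. On simulated counts for this comparison, over 19791 genes, 41% of 2-fold and 100% of 4-fold changes were recovered. The simulation used a common dispersion, estimated from the wild-type libraries, and changed only a small part of the genes. In the data 42.0% of genes were called and SKO replicate 3 stood apart, so recovery in the data may differ.

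The members and lists were chosen with earlier results of these data known. Values per library are given, within each role, for the 2 most abundant members per kilobase and up to 4 called in each direction with the lowest adjusted p, and for the Ttll genes. Of each list of other genes, up to 2 per direction with the lowest adjusted p could be named. Some items are not reported here.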

Additional observations from a re-analysis of the deposited data

How the results depend on the processing

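Of the 7 members called higher, 6 (Svbp, Tbca, Ttl, Tuba1a, Tubb5 and Vash2) were called under every alternative that tested them, and of the 23 called lower, 14 were: Agbl2, Tbcd, Ttll2, Ttll3, Ttll6, Ttll10, Tuba3a, Tuba3b, Tuba4a, Tubd1, Tube1, Tubg1, Tubgcp2 and Tubgcp4. With a filter of 5 CPM in 3 libraries, 41 members were tested, 4 were called higher, and 2742 of all genes were called lower in place of 4127, since fewer genes were tested. The length and GC correction called 5 Ttll genes lower in place of 8 and brought their median from -0.65 to -0.24, and library totals alone brought it to -0.89, beside a median of all genes of -0.228. Leaving out single libraries gave 4 (without wild-type replicate 2) to 11 (without SKO replicate 3) Ttll genes called lower, with medians of -0.86 to -0.55. With any 1 wild-type library left out, 3025 to 3253 of all genes were called lower and 3064 to 3292 higher, in place of 4127 and 4185. Without SKO replicate 3, 4766 of all genes were called lower. The longest transcript as length is the transcript already used for each alpha- and beta-tubulin gene, so this alternative could not change their ratio.

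Signs turned for genes that were not called. Under the length and GC correction these were Agbl1 (0.03), Tpgs1 (0.05), Tpgs2 (0.03), Ttll11 (0.14), Tuba8 (0.07) and Tubgcp3 (0.27). Under library totals they were Atat1 (-0.21), Tuba1c (-0.02), Tubb4b (-0.23) and Tubb6 (-0.22). Tubb4b was -0.0079 with DESeq2 or its size factors, and Atat1 -0.0028 with limma-voom. With single libraries left out, the values of these genes ran from -0.15 to 0.24 for Atat1, -0.05 to 0.05 for Tubb4b, -0.32 to 0.02 for Tpgs2, -0.02 to 0.32 for Tuba1c, -0.05 to 0.04 for Tubb6 and -0.59 to 0.09 for Tubgcp3. The cause of these changes was not tested.

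Same-numbered libraries did not deviate together (correlations across genes of -0.022, -0.051 and -0.065). Pairs of different number ran from -0.026 to 0.074. No pairing by number was seen, though this check cannot exclude a weak shared effect. With the replicate number as a block, 21 members were called lower and 6 higher, 6 of the Ttll genes lower, with a median of -0.73.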
